A study of Mus musculus with 2 samples.

Results

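Donor T cells recovered from the spleens of mice with graft-versus-host disease were examined for transcripts of 10 cytokine receptor chains. The chains are Il2rb and Il2rg (IL-2 and IL-15), Il21r (IL-21), Il12rb1 and Il12rb2 (IL-12), Il18r1 and Il18rap (IL-18), Il10ra (IL-10), Ifngr1 (interferon-γ) and Il6st (gp130, the shared chain of the IL-6 family). They were taken by gene symbol from the 32285 genes listed in the deposited tables, and each of the 10 symbols matched 1 gene.

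The data are 2 droplet-based single-cell RNA libraries made on the 10x Genomics Chromium system, 1 from day +7 and 1 from day +14 after allogeneic hematopoietic cell transplantation (allo-HCT). Lethally irradiated WT BALB/c recipients received T cell-depleted bone marrow together with purified splenic T cells, both from WT C57BL/6 donors. The methods of the study name naive T cells for this transplant model, but its legend for the single-cell data does not say naive. Donor T cells, recognized as TCRβ+ CD45+ cells with the donor marker H2Kb and without the host marker H2Kd, were sorted from spleens and pooled, and both library names carry the word PBS. The labels describe the sort at day +7 for both libraries, so the day was taken from the sample title, and they state no age. There was no library from mice without disease and no second library for either day, so day and library cannot be told apart and no test was made.

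Barcodes were kept when 500 to 7500 genes were detected and mitochondrial transcripts made up at most 15%. This left 7179 cells in the day +7 library, holding 86745047 unique molecular identifiers (UMIs, each a captured RNA molecule), and 7794 cells holding 83808218 UMIs in the day +14 library. Median depth was 9210 and 8144 UMIs per cell. Among the kept cells 17 barcodes occurred in both libraries. The CD8 gate (a UMI of Cd8a or Cd8b1, none of Cd4 or Foxp3) held 5852 cells at day +7 and 5959 at day +14, and the CD4 gate (a Cd4 UMI, none of Cd8a, Cd8b1 or Foxp3) held 459 and 695. The Foxp3+ gate (a Foxp3 UMI, none of Cd8a or Cd8b1) held only 42 and 39 cells. Over all kept cells the 6 CD3 and T cell receptor genes summed to 5687 and 7521 UMIs per 1000000, so the sorted lineage was present in both libraries. The 6 myeloid genes summed to 2177 and 2325 over all kept cells. Each gate also needed at least 2 UMIs of the 6 T cell genes and under 0.5% of UMIs on myeloid genes. Low myeloid sums inside the gates therefore follow from how the gates were set. The 3 natural killer genes Ncr1, Klrb1c and Klra8 summed to 7.63 and 0.697 per 1000000 in the CD8 gate and to between 0 and 2.74 in the others, with Klra8 at 0 in all 3 gates, and the 6 myeloid genes summed to between 29.6 and 56.0. Their part in the receptor results was not tested.

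Cytokine receptors of this group signal through pairs of chains. IL-2 and IL-15 use the beta chain Il2rb with the common gamma chain Il2rg, which IL-21 shares beside its own Il21r, and these receptors act through Janus kinases and STAT proteins. IL-12 binds Il12rb1 and Il12rb2 and acts through STAT4, whereas IL-18 binds Il18r1, needs the accessory chain Il18rap, and acts through MyD88. In T cells IL-12 and IL-18 are known to favor interferon-γ production, and IL-2 and IL-15 to sustain effector cells.

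Expression was measured as UMIs of a gene summed over the cells of a gate, per 1000000 UMIs of those cells (CPM). Levels are given with the exact 95% Poisson interval and log2 ratios with the exact 95% binomial interval in brackets, and all intervals cover counting error only, not differences between mice. A gene was compared when it had a mean of at least 10 CPM and at least 20 UMIs over both sides, and a difference of at least 1.5-fold is called higher or lower. The values of all 10 receptors are drawn in the plot of levels by gate and day.

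**Figure D1:**
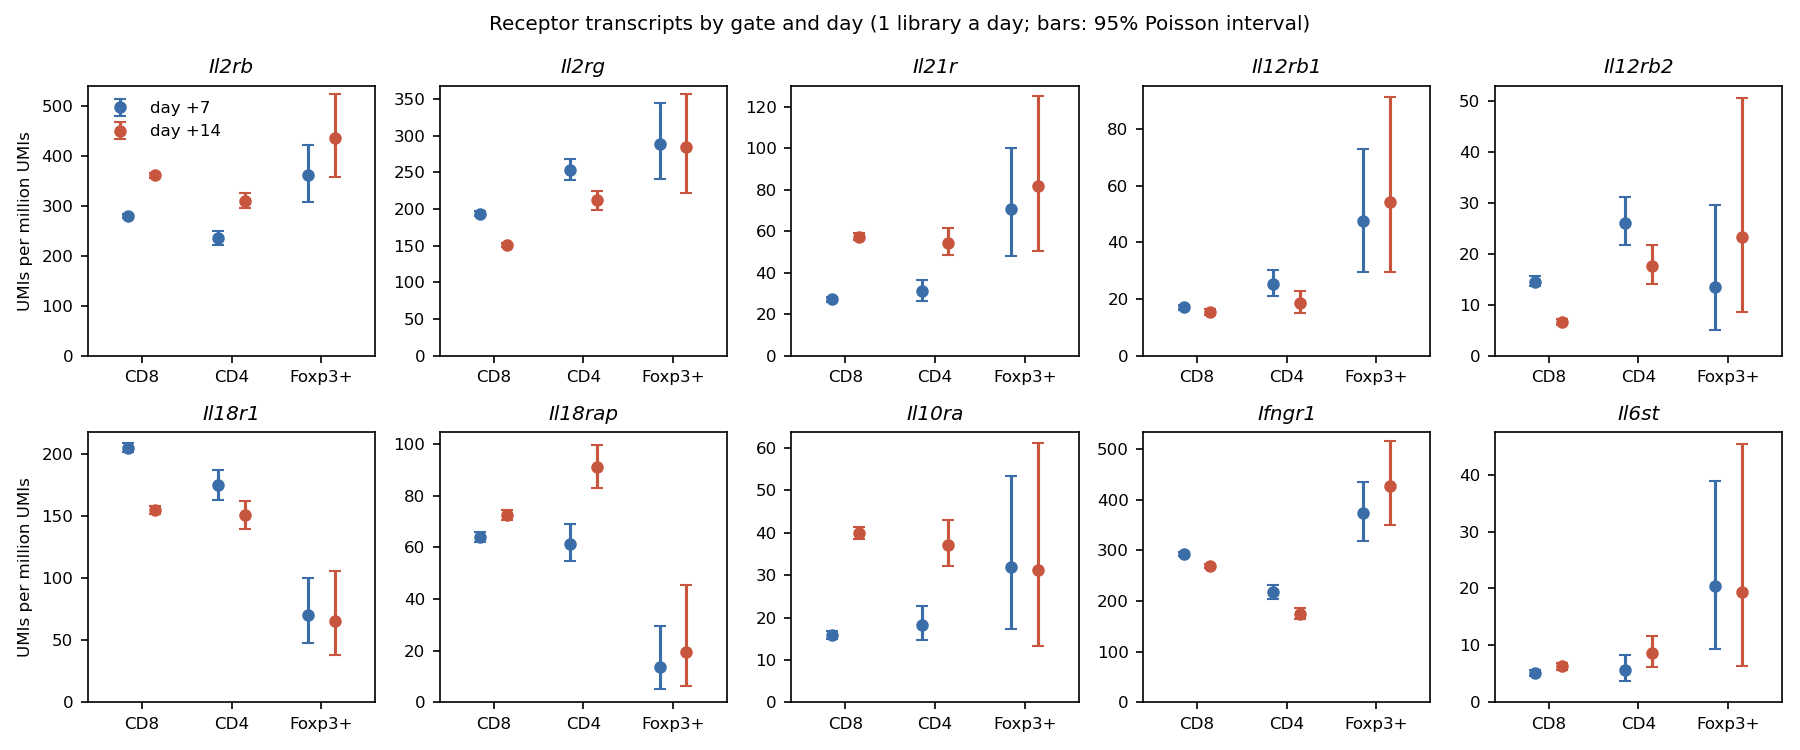
UMIs per 1000000 UMIs (CPM, vertical axis, from 0, scaled for each gene) of the 10 receptor genes in the CD8, CD4 and Foxp3+ gates at day +7 (blue) and day +14 (red), 1 library a day, with 95% Poisson intervals as bars. Il21r and Il10ra lay higher at day +14 in the CD8 and CD4 gates, Il12rb2 lay lower there, and Il18r1 and Il18rap were lowest in the Foxp3+ gate.

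Over all kept cells, 2 of the 9 receptors compared were higher at day +14, Il21r and Il10ra, and 1 was lower, Il12rb2. Of all 6919 genes compared in the same way, 12.2% were past 1.5-fold in either direction. In the CD8 gate the same 3 receptors passed, beside a background of 12.5%. In the CD4 gate Il21r and Il10ra were higher and none was lower, beside a background of 18.3%. In the Foxp3+ gate none of 7 passed, beside a background of 31.8%, and the intervals there were wide. The median ratio of all genes compared was 0.19 on the log2 scale in the CD8 gate and 0.16 in the CD4 gate, so values relative to the median gene lie lower by that much. On that scale the CD8 ratios were 0.88 for Il21r, 1.14 for Il10ra and -1.33 for Il12rb2. The tenth receptor, Il6st, was under the filter in these comparisons.

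The 2 IL-2 receptor chains had ratios of opposite sign. In the CD8 gate Il2rb had 279 CPM in the day +7 and 361 CPM in the day +14 library (log2 ratio 0.37 [0.34, 0.40]), and in the CD4 gate 235 and 310 CPM (0.40 [0.29, 0.51]). Il2rg went the other way, with 193 and 151 CPM in the CD8 gate (-0.36 [-0.39, -0.32]) and 253 and 212 CPM in the CD4 gate (-0.26 [-0.38, -0.14]). Neither chain passed 1.5-fold in the CD8 or CD4 gate, and both kept their sign relative to the median gene. Cells were called cycling when 12 cell cycle genes held at least 0.1% of their UMIs. Il2rb in non-cycling CD8 cells was 274 CPM in the earlier and 414 CPM in the later library, 0.60 [0.55, 0.65], against 281 and 343 CPM in cycling cells, 0.29 [0.25, 0.32]. The ratio was thus larger outside the cycle, by intervals that do not overlap.

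Il21r, the chain that gives the common gamma chain its IL-21 specificity, was about 2-fold higher at day +14. In the CD8 gate it had 27.4 CPM [26.1, 28.6] and 57.4 CPM [55.6, 59.2], a log2 ratio of 1.07 [0.99, 1.15] that exceeded 98.2% of genes compared. The CD4 gate gave 31.2 and 54.6 CPM, a log2 ratio of 0.81 [0.52, 1.11]. The share of CD8 cells with an Il21r UMI, after each cell was thinned to 4000 UMIs, was 10.7% [9.93, 11.6] of 5754 cells at day +7 and 20.3% [19.2, 21.4] of 5475 at day +14, and 25.7% and 42.2% without thinning. More cells of the gate thus carried the transcript at day +14, at median depths before thinning of 9252.5 and 8589 UMIs. In erythroid cells of the day +7 library, a lineage that should lack this receptor, 0 of 20 thinned cells carried it [0, 16.8%], and the sum over 27 cells of median depth 27987 UMIs held 0 UMIs, an upper limit of 6.45 CPM. The Foxp3+ gate had 70.5 and 81.6 CPM (0.21 [-0.66, 1.06]) from 31 and 21 UMIs, and the interval includes 0.

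Il12rb2, the IL-12 chain that carries the STAT4 docking function, was the single receptor lower at day +14. In the CD8 gate it had 14.6 CPM [13.7, 15.6] and 6.63 CPM [6.02, 7.28], a log2 ratio of -1.14 [-1.31, -0.98], and only 1.11% of genes compared had a lower ratio. The CD4 gate gave 26.1 and 17.6 CPM, -0.57 [-0.98, -0.16], just inside 1.5-fold. Its partner Il12rb1, which IL-23 also uses, had 17.1 and 15.4 CPM in the CD8 gate (-0.15 [-0.27, -0.026]) and 25.3 and 18.8 CPM in the CD4 gate (-0.43 [-0.83, -0.024]). The CD8 ratio of Il12rb1 turned to 0.10 with the mean of per-cell CPM and to 0.084 after thinning to 4000 UMIs. The ratio of Il12rb2 lay farther from 0 than that of Il12rb1 in CD8 cells, by intervals that do not overlap. Thinned cells with an Il12rb2 UMI made up 4.90% [4.36, 5.49] of the CD8 gate at day +7 and 2.48% [2.09, 2.93] at day +14, and 14.3% and 6.46% unthinned. The erythroid cells held 0 UMIs of it at either day. Il12rb2 lies at chr6:67291318-67376188 on the minus strand (GRCm38) and overlaps Serbp1 on the opposite strand. Serbp1 was 739 and 860 CPM in the CD8 gate, a log2 ratio of 0.22 [0.20, 0.24], near the median gene at 0.19. Its part in the Il12rb2 difference was not tested.

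The promoter of Il12rb2 is shown because this chain had the lowest ratio of the receptors in CD8 cells. The window runs from 250 bases before to 50 after the RefSeq start (GRCm38.p6, chr6:67376139-67376438, minus strand). Capitals mark a STAT-type palindrome, TTCNNNGAA, starting at base 128 and a T-box core, TCACAC, starting at base 171, searched on both strands and not overlapping each other.
Il12rb2: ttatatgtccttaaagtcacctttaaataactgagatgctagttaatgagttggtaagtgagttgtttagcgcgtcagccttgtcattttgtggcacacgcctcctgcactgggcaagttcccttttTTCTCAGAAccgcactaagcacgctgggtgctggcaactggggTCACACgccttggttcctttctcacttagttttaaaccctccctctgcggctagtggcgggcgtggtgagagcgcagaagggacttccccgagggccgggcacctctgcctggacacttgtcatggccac
Of 32851 mouse promoter windows of the same length, 8.30% hold the first motif and 14.5% the second. A match of letters is a description and not a binding site. The Il21r window held neither motif.

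The IL-18 receptor genes lie side by side on chromosome 1 in the same orientation. Il18r1, the ligand-binding chain, spans chr1:40465552-40500854, and Il18rap, the accessory chain, chr1:40515362-40551705, with 14508 bases and no annotated gene between them (GENCODE M21, GRCm38, plus strand). Their promoter windows are shown since the transcripts had a Pearson r of 0.903 over 10 sums of cells, which include the small Foxp3+ gate. RefSeq gives 3 starts for Il18r1, of which starts 1 and 3 are printed, and capitals mark TTCNNNGAA.
Il18r1, start 1, chr1:40465302-40465601: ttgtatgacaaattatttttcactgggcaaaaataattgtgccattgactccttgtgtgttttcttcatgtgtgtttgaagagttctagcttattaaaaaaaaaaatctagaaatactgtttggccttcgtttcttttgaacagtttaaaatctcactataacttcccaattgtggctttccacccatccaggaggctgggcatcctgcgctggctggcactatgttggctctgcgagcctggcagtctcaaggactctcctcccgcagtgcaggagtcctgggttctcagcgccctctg
Il18r1, start 3, chr1:40465756-40466055: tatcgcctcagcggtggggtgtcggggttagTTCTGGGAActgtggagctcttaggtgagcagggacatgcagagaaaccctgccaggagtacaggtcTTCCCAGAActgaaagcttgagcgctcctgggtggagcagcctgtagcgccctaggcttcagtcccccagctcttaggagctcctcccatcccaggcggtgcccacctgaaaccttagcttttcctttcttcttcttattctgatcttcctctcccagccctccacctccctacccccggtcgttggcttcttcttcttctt
Il18rap, chr1:40515112-40515411: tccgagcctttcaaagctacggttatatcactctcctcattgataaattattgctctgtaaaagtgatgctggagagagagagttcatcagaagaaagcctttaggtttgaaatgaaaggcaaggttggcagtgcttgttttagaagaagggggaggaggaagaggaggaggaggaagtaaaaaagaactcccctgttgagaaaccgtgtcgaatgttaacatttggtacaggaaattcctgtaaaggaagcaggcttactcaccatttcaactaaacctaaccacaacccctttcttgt
The window of Il18r1 start 3 held the palindrome at bases 32 and 99, whereas that of start 1 and the Il18rap window held neither motif. No match means only that these letters are not in these windows.

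The 2 chains differed by day in CD8 cells. Il18r1 had 205 CPM in the day +7 and 155 CPM in the day +14 library (-0.40 [-0.44, -0.37]), and 4.68% of genes compared had a lower ratio. Il18rap had 64.1 and 72.5 CPM, 0.18 [0.12, 0.24], which was -0.011 relative to the median gene. Neither passed 1.5-fold, but their intervals were far apart. In CD4 cells Il18r1 had 175 and 151 CPM (-0.21 [-0.36, -0.070]) and Il18rap 61.5 and 91.1 CPM (0.57 [0.35, 0.78]).

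In the CD4 gate the 2 chains differed by day in different cells. Like the other day ratios within cycling and non-cycling cells, these were added after the data were seen. Non-cycling CD4 cells numbered 282 at day +7 and 494 at day +14. Il18rap was 77.0 and 141 CPM there, a log2 ratio of 0.87 [0.60, 1.15], against 49.0 and 42.3 CPM in cycling CD4 cells (-0.21 [-0.59, 0.17]). The non-cycling ratio was 0.65 relative to the median gene, above 88.1% of genes compared, and 0.62 after thinning to 4000 UMIs. Of all genes compared in non-cycling CD4 cells, 23.9% were higher and 4.13% lower at day +14. Median depth in these cells was 6848.5 and 4394.5 UMIs, and its part was not tested. Il18r1 was 206 and 216 CPM in non-cycling CD4 cells (0.074 [-0.11, 0.26]) and 150 and 86.7 CPM in cycling ones (-0.79 [-1.04, -0.55]). A small number of cells held many of the Il18rap UMIs at day +14. At 4000 UMIs a cell, 2 of 446 CD4 cells (0.448% [0.0544, 1.61]) had 3 or more Il18rap UMIs at day +7 and 17 of 495 (3.43% [2.01, 5.44]) at day +14, and these cells held 5.97% and 36.8% of the gate's Il18rap UMIs. All 17 were non-cycling. The share of CD4 cells with any Il18rap UMI was 24.4% and 22.6%. Thinning left out 200 of the 695 CD4 cells at day +14 as too shallow and 13 of 459 at day +7, and natural killer genes summed to 2.74 and 1.40 CPM in the CD4 gate.

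Cells with an Il18rap UMI more often had an Il18r1 UMI. In thinned CD8 cells the share with Il18r1 was 61.9% [59.2, 64.5] among Il18rap-positive and 50.4% [48.9, 51.9] among Il18rap-negative cells at day +7, and 55.6% [52.9, 58.3] and 39.7% [38.2, 41.3] at day +14. In CD4 cells the shares were 60.6% [50.7, 69.8] and 44.8% [39.4, 50.3] at day +7, and 62.5% [52.9, 71.5] and 27.4% [23.0, 32.2] at day +14. The gap was widest in CD4 cells of day +14, as the plot of paired IL-18 receptor detection shows. For the chains of the IL-2 receptor the intervals overlapped. Il2rb was found in 63.9% [62.2, 65.6] of CD8 cells with Il2rg and 62.0% [60.0, 63.8] of those without at day +7, and in 73.7% [71.9, 75.4] and 71.7% [70.0, 73.3] at day +14. In CD4 cells it was found in 58.2% [52.2, 64.1] with Il2rg and 63.9% [56.0, 71.2] without at day +7, and in 71.5% [65.7, 76.8] and 61.8% [55.1, 68.2] at day +14. The intervals also overlapped for Il12rb1 by Il12rb2 in both gates on both days, with under 10% of cells positive for either chain.

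**Figure D2:**
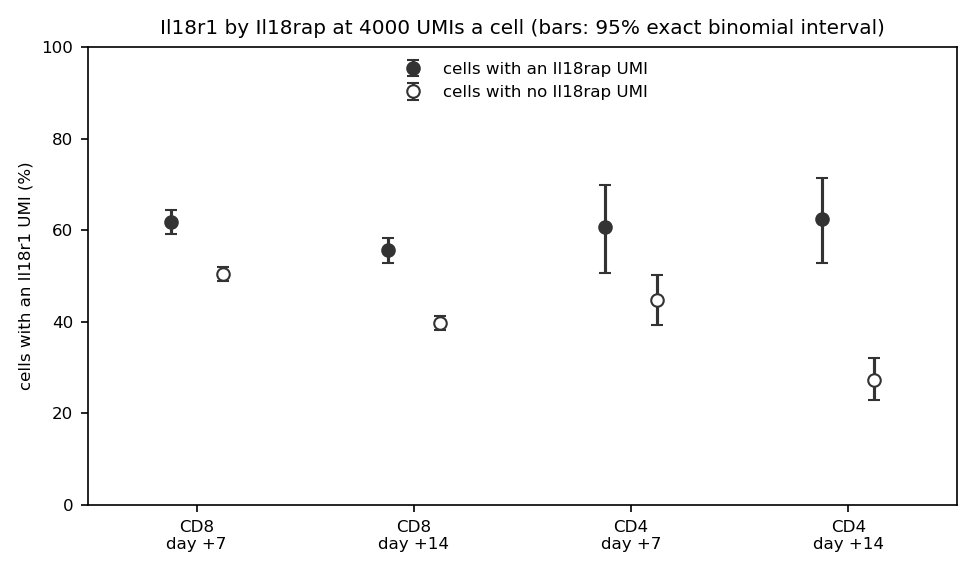
Percent of cells with an Il18r1 UMI (vertical axis) among cells with (filled) and without (open) an Il18rap UMI, in the CD8 and CD4 gates at each day, with 95% exact binomial intervals, after thinning to 4000 UMIs a cell. The filled points lie between 55.6% and 62.5% and the open points between 27.4% and 50.4%.

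Il10ra, the ligand-binding chain for the inhibitory cytokine IL-10, had the highest day ratio of the receptors compared in all kept cells and in the CD8 and CD4 gates. In the CD8 gate it had 15.8 CPM [14.9, 16.8] and 39.9 CPM [38.4, 41.4], a log2 ratio of 1.33 [1.23, 1.43], above 99.0% of genes compared. In the CD4 gate it had 18.3 and 37.2 CPM, 1.02 [0.65, 1.41], and in the Foxp3+ gate 31.8 and 31.1 CPM, -0.034 [-1.49, 1.32]. Thinned cells with an Il10ra UMI were 6.83% [6.19, 7.51] of the CD8 gate at day +7 and 14.9% [14.0, 15.9] at day +14, and 15.5% and 31.4% unthinned, so the positive share was also higher. In the CD4 gate the thinned shares were 9.42% [6.87, 12.5] and 12.3% [9.56, 15.5], with intervals that overlap. The CD4 ratio was 0.60 after thinning, below the 0.92 of Il21r in the same setting, and median CD4 depth was 8291 and 5325 UMIs. Erythroid cells gave 0 UMIs at day +7, an upper limit of 6.45 CPM, and 1 at day +14, or 13.5 CPM [0.341, 75.1].

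Ifngr1, the ligand-binding chain of the interferon-γ receptor, did not pass 1.5-fold by day in the CD8 or CD4 gate, and Il6st was under the filter there. Ifngr1 had 293 and 270 CPM in the CD8 gate (-0.12 [-0.14, -0.086]) and 218 and 175 CPM in the CD4 gate (-0.31 [-0.44, -0.18]). Erythroid cells of day +7 also carried it, with 80.5 CPM [58.9, 107] and a UMI in 4 of 20 thinned cells. Il6st had 5.09 and 6.34 CPM in the CD8 gate (0.32 [0.11, 0.53]) and 5.69 and 8.61 CPM in the CD4 gate (0.60 [-0.13, 1.35]), a low level in both gates. Their partner chains, chosen here after their values were seen, were scarce. Ifngr2 had 0.332 and 0.167 CPM and Il6ra 0.563 and 0.318 CPM in the CD8 gate.

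**Figure D3:**
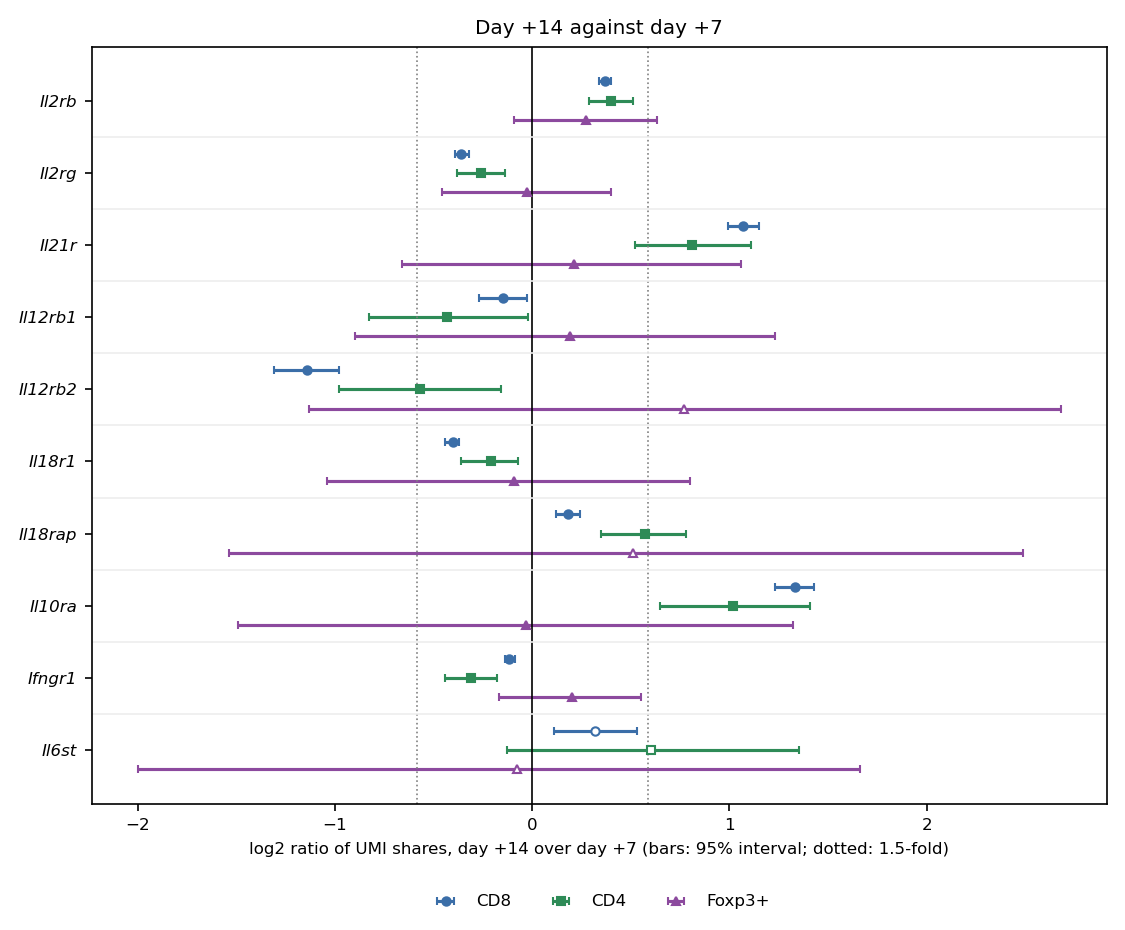
Log2 ratio of UMI shares, day +14 over day +7 (horizontal axis), for each receptor in the CD8 (circles), CD4 (squares) and Foxp3+ (triangles) gates, with 95% counting intervals, dotted lines at 1.5-fold and open symbols where a gene was under the filter. Il21r and Il10ra lie right of the dotted line in the CD8 and CD4 gates, Il12rb2 lies left of it in the CD8 gate, and the Foxp3+ intervals are the widest.

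Cycling cells were next compared with non-cycling cells of the same gate and library. No receptor was higher by 1.5-fold in cycling cells in any of the 4 comparisons. In CD8 cells 1 of 9 receptors was lower at day +7, Il10ra, beside a background of 21.3% past 1.5-fold, and 3 of 8 were lower at day +14, Il18r1, Il18rap and Il10ra, beside 20.7%. In CD4 cells 3 of 9 were lower at day +7, Il21r, Il18rap and Il10ra, beside 28.4%, and 5 of 9 at day +14, Il2rb, Il2rg, Il18r1, Il18rap and Il10ra, beside 37.9%. The median receptor lay at -0.22 and -0.48 in CD8 cells at day +7 and day +14 and at -0.29 and -0.59 in CD4 cells, where the median of all genes compared lay between -0.079 and 0.066. Median depth was 13576 UMIs in cycling and 6920.5 in non-cycling CD8 cells at day +7, and 12506 and 5633 at day +14, and its part was not tested.

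Il10ra was lower in cycling cells in each of the 4 comparisons. It had 12.7 CPM in cycling and 22.8 CPM in non-cycling CD8 cells at day +7 (-0.85 [-1.02, -0.67]) and 35.2 and 53.5 CPM at day +14 (-0.60 [-0.72, -0.48]). In CD4 cells the values were 11.0 and 27.4 CPM at day +7 (-1.31 [-2.01, -0.65]) and 19.8 and 55.1 CPM at day +14 (-1.48 [-1.98, -1.0]). The day difference was present on both sides of the split in CD8 cells, with log2 ratios of day +14 over day +7 of 1.48 [1.34, 1.61] in cycling and 1.23 [1.07, 1.39] in non-cycling cells.

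The IL-18 receptor differed most in CD4 cells of day +14. Il18rap had 42.3 CPM in cycling and 141 CPM in non-cycling cells, -1.74 [-2.06, -1.42], and Il18r1 86.7 and 216 CPM, -1.32 [-1.55, -1.09]. At day +7 the same CD4 ratios were -0.65 [-1.0, -0.31] and -0.45 [-0.65, -0.25], so the intervals of the 2 days do not overlap for either chain. In CD8 cells Il18rap was 57.2 and 79.2 CPM at day +7 (-0.47 [-0.56, -0.38]) and 63.1 and 100 CPM at day +14 (-0.66 [-0.75, -0.58]).

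Il2rb and Il2rg passed 1.5-fold in CD4 cells of day +14, at -0.59 [-0.74, -0.44] and -0.76 [-0.94, -0.58], and Il21r in CD4 cells of day +7, at -0.59 [-1.08, -0.10]. Il2rg was lower in cycling CD8 cells at both days, at -0.43 [-0.48, -0.38] and -0.51 [-0.57, -0.45], whereas Il2rb gave 0.038 [-0.0057, 0.083] at day +7 and -0.27 [-0.31, -0.23] at day +14. Ifngr1 lay between -0.37 and -0.093 in the 4 comparisons. With a cycling limit of 0.2% it was 0.084 at day +7 and 0.15 at day +14 in CD8 cells and 0.026 at day +7 in CD4 cells, whereas it was -0.17 in CD4 cells at day +14. Il12rb1 in CD8 cells was 18.1 CPM in cycling and 14.9 CPM in non-cycling cells at day +7, and 14.1 and 19.2 CPM at day +14.

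**Figure D4:**
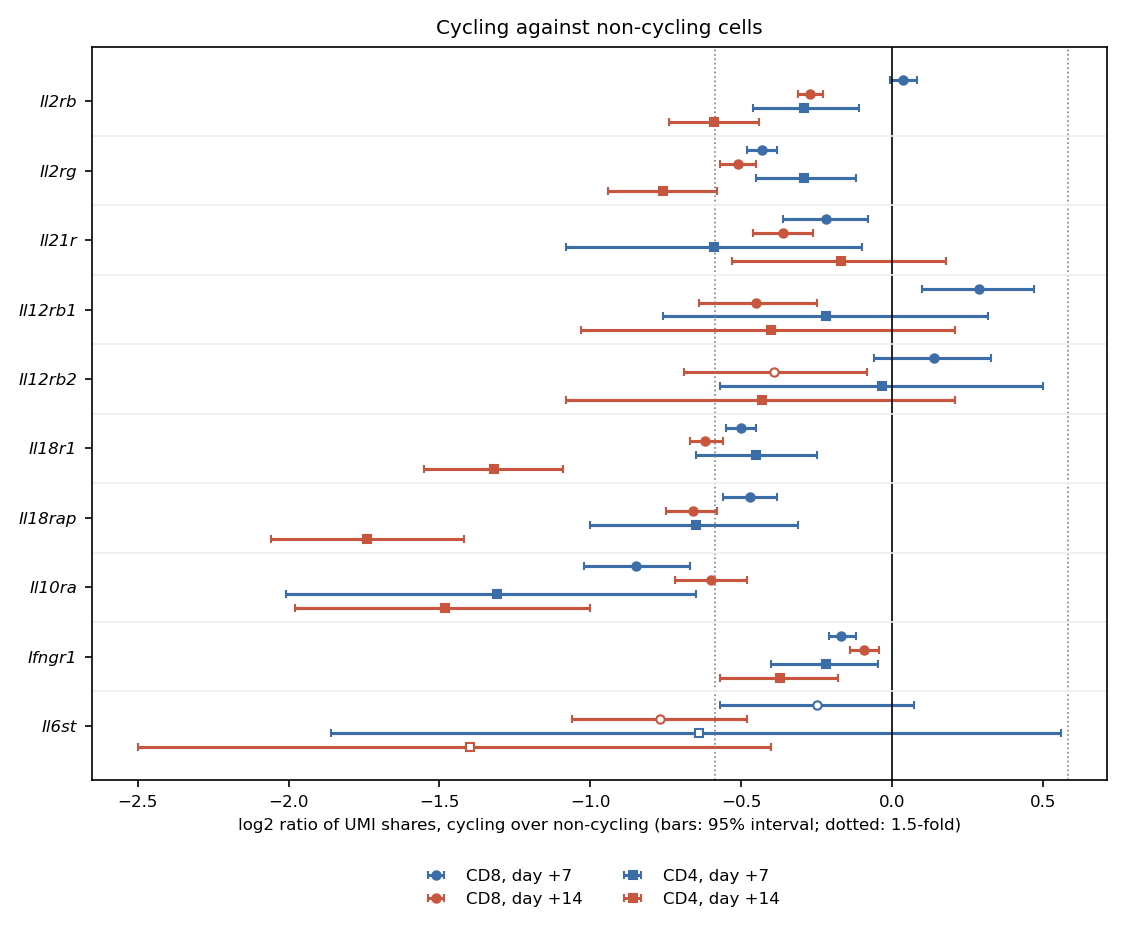
Log2 ratio of UMI shares, cycling over non-cycling cells (horizontal axis), for each receptor in CD8 (circles) and CD4 (squares) cells at day +7 (blue) and day +14 (red), with 95% counting intervals, dotted lines at 1.5-fold and open symbols where a gene was under the filter. Most points lie left of 0, with Il18rap in CD4 cells of day +14 farthest left among genes past the filter at -1.74.

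Within a library only Il12rb2 and Ifngr1 passed 1.5-fold between the CD4 and CD8 gates. At day +7, 1 of 9 receptors was higher in CD4 cells, Il12rb2, beside a background of 6.23%. At day +14, Il12rb2 was higher and Ifngr1 lower, beside 10.3%. Il12rb2 was 26.1 CPM in CD4 and 14.6 CPM in CD8 cells at day +7 (0.84 [0.55, 1.11]), and 17.6 and 6.63 CPM at day +14 (1.41 [1.06, 1.74]). Ifngr1 was 218 and 293 CPM at day +7 (-0.43 [-0.52, -0.34]) and 175 and 270 CPM at day +14 (-0.62 [-0.72, -0.53]). Il2rg was moderately higher in CD4 cells at both days, by 0.39 [0.30, 0.47] and 0.49 [0.40, 0.58]. Il12rb1 was 25.3 and 17.1 CPM at day +7 (0.57 [0.28, 0.84]), just inside 1.5-fold and above 95.7% of genes compared. At day +14 it gave 0.29 [-0.032, 0.59].

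Foxp3+ cells, gated by the transcription factor of regulatory T cells, differed from the CD4 gate in several receptors, with Il18rap the farthest. The regulatory T cell genes Ikzf2, Il2ra, Ctla4, Tnfrsf4 and Il10, not used by the gate, summed to 2426 and 3570 CPM in it and to 382 and 630 CPM in the CD4 gate, so the label held. At day +7, 6 of the 10 receptors were higher and 3 lower in Foxp3+ cells, beside a background of 27.3% past 1.5-fold. At day +14, 3 were higher and 2 lower, beside 35.7%. These counts rest on 42 and 39 cells, and the erythroid genes summed to 218 CPM in the Foxp3+ gate at day +7 against 35.6 CPM in the CD4 gate.

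Il18rap was lower in the Foxp3+ gate. It had 6 UMIs or 13.6 CPM [5.01, 29.7] against 61.5 CPM in the CD4 gate at day +7, a log2 ratio of -2.17 [-3.63, -1.03], and 5 UMIs or 19.4 CPM [6.31, 45.3] against 91.1 CPM at day +14, -2.23 [-3.86, -1.0]. Il18r1 followed, with 70.5 against 175 CPM at day +7 (-1.31 [-1.88, -0.79]) and 66.0 against 151 CPM at day +14 (-1.19 [-1.98, -0.50]). Both chains were thus lower in both libraries. With a Foxp3+ gate that ignores Cd8a and Cd8b1, chosen after seeing the data, the ratios to the CD4 gate at day +7 and day +14 were -0.42 and -0.28 for Il18r1, no longer past 1.5-fold, and -0.61 and -0.66 for Il18rap.

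Ifngr1, Il12rb1 and Il6st were higher in the Foxp3+ gate at both days. Ifngr1 had 373 against 218 CPM at day +7 (0.78 [0.53, 1.01]) and 427 against 175 CPM at day +14 (1.29 [0.99, 1.57]). Il12rb1 had 47.7 against 25.3 CPM (0.92 [0.17, 1.59]) and 54.4 against 18.8 CPM (1.53 [0.61, 2.35]). Il6st rested on 9 and 5 UMIs, with 20.5 against 5.69 CPM (1.85 [0.57, 2.98]) and 19.4 against 8.61 CPM (1.17 [-0.52, 2.51]), so at day +14 the interval includes 0. At day +7, Il2rb (0.62 [0.37, 0.86]) and Il21r (1.18 [0.57, 1.74]) were also higher, and at day +14 they gave 0.49 [0.20, 0.77] and 0.58 [-0.14, 1.22]. Il10ra (0.80 [-0.13, 1.62]) and Il12rb2 (-0.94 [-2.41, 0.23]) passed 1.5-fold at day +7 with intervals that include 0.

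**Figure D5:**
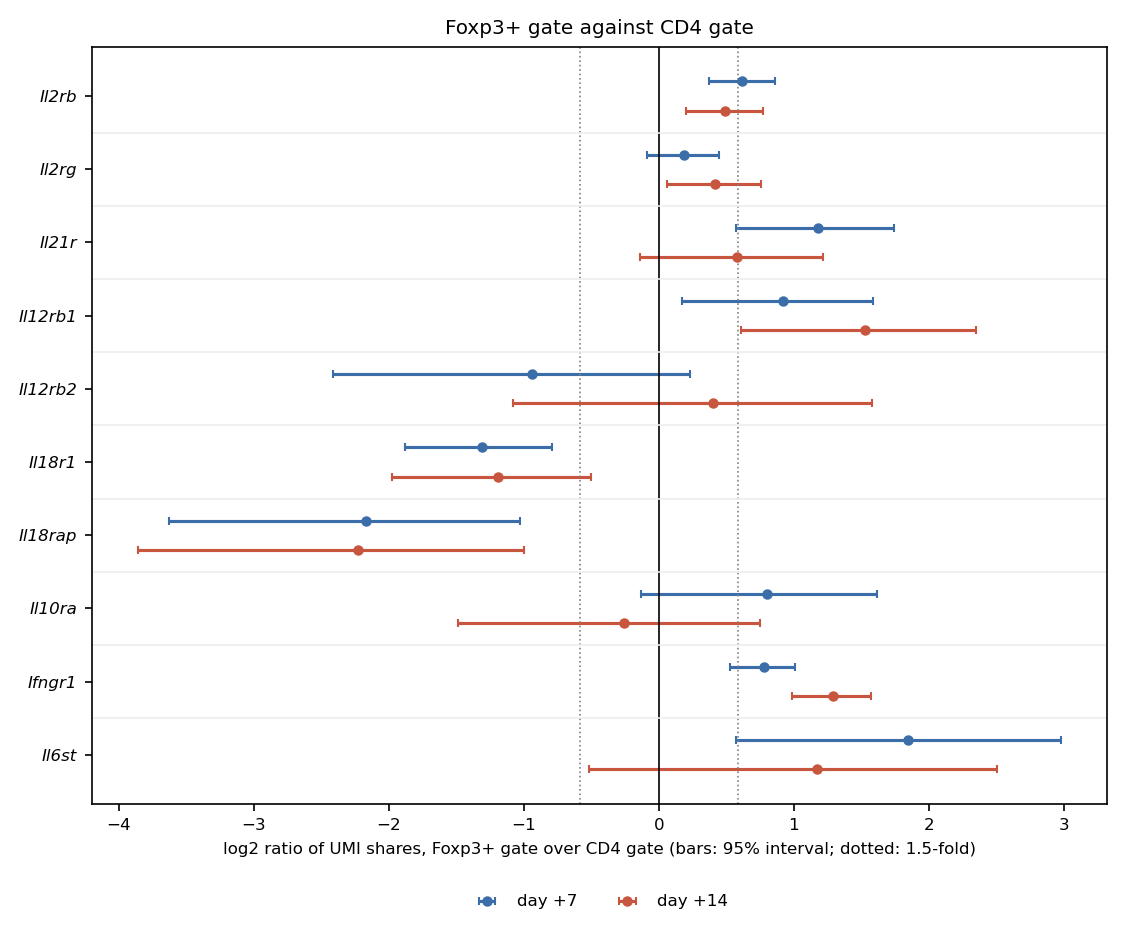
Log2 ratio of UMI shares, Foxp3+ gate over CD4 gate (horizontal axis), for each receptor at day +7 (blue) and day +14 (red), with 95% counting intervals and dotted lines at 1.5-fold. Il18r1 and Il18rap lie left of 0 at both days, and Ifngr1 and Il12rb1 lie right of 0 at both days.

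More T cells had Foxp3 together with Cd8a or Cd8b1 UMIs than were in the Foxp3+ gate, 157 at day +7 and 51 at day +14, and they were examined after the data were seen. Against the CD8 gate at day +7, Il21r was 45.0 and 27.4 CPM (0.72 [0.43, 0.99]), Il12rb1 27.7 and 17.1 CPM (0.70 [0.33, 1.04]) and Il10ra 25.4 and 15.8 CPM (0.68 [0.30, 1.04]). The IL-18 receptor was lower in these cells at day +7, at -0.54 [-0.69, -0.39] for Il18r1 and -0.51 [-0.79, -0.25] for Il18rap. At day +14 these differences had intervals that include 0, at -0.12 [-0.40, 0.15] and -0.058 [-0.47, 0.32] for the IL-18 chains, 0.12 [-0.32, 0.52] for Il21r and 0.37 [-0.44, 1.08] for Il12rb1. Il10ra was -0.54 [-1.22, 0.059], opposite in sign to day +7. Il2rb (0.34 [0.24, 0.43] and 0.32 [0.17, 0.47]), Il2rg (0.40 [0.28, 0.51] and 0.52 [0.29, 0.73]) and Ifngr1 (0.15 [0.053, 0.25] and 0.27 [0.083, 0.44]) were above the CD8 gate at both days, by less than 1.5-fold. At day +7, 3 of 9 receptors were higher and 0 lower, beside 3.65% and 2.33% of all genes compared. At day +14, 0 of 8 passed in either direction, beside 8.80% higher and 4.19% lower. The 6 myeloid genes summed to 276 CPM in these cells at day +7 and 52.2 CPM at day +14, against 48.2 and 47.3 CPM in the CD8 gate, and median depth was 12358 and 13733 UMIs against 9252.5 and 8589. Their part in these differences was not tested.

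Non-cycling CD8 cells were divided further by marker genes of effector or memory state. They were thinned to 4000 UMIs and divided by a UMI of Gzma, Tcf7, Tox or Nr4a1, each a cut on a sparse count. Of all genes compared, 22.5% at day +7 and 19.3% at day +14 were past 1.5-fold by Tcf7. The shares were 17.6% and 21.7% by Nr4a1, 3.52% and 2.75% by Tox, and 4.49% and 6.15% by Gzma. Ifngr1 was lower in cells with Tcf7, a transcription factor of naive and memory cells, at 211 against 335 CPM at day +7 (-0.66 [-0.98, -0.37], 110 cells with Tcf7) and 158 against 299 CPM at day +14 (-0.92 [-1.22, -0.63], 163 cells). Il2rb was lower with Tcf7 at day +14, 293 against 422 CPM (-0.53 [-0.74, -0.31]), and even at day +7, 261 against 268 CPM (-0.038 [-0.32, 0.23]). With Tox, a factor linked to chronic stimulation, Il10ra was 34.6 against 20.4 CPM at day +7 (0.76 [0.36, 1.15]) and 54.6 against 46.1 CPM at day +14 (0.24 [-0.039, 0.53]). With Gzma, a granzyme, Il18rap was 85.4 against 61.0 CPM at day +7 (0.49 [0.22, 0.76]) and 92.8 against 101 CPM at day +14 (-0.13 [-0.41, 0.14]). Of the differences given so far, that of Ifngr1 by Tcf7 had an interval without 0 in both libraries, and each of the others in 1. They are not all the splits. Il6st by Nr4a1 was 1.81 [0.42, 2.96] at day +7 and 0.013 [-2.30, 1.62] at day +14, where it was under the filter. Il12rb1 by Tox was -0.88 [-1.64, -0.20] at day +7 and -0.27 [-0.73, 0.19] at day +14. Il18rap by Tcf7 was -0.46 at day +7, with an interval that includes 0, and -0.54 at day +14, where it does not. Further splits with intervals without 0 are not given here.

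Genes of the same pathways were read beside the receptors in the CD8 gate. Of 14 partner and related receptor chains, 4 were compared, and 2 were lower and 1 higher at day +14. Of all genes compared in that gate, 2.87% were lower and 9.59% higher. Il2ra, the chain that gives the IL-2 receptor high affinity, had 36.4 CPM at day +7 and 5.12 CPM at day +14 (-2.83 [-3.00, -2.66]), and Il7r, the IL-7 receptor, 47.2 and 8.22 CPM (-2.52 [-2.66, -2.39]). Il1rl1, the IL-33 receptor, had 10.9 and 3.78 CPM (-1.53 [-1.74, -1.32]) with a mean under the filter. The compared chain that was higher, Il10rb, the second IL-10 receptor chain, had 31.5 and 47.8 CPM (0.60 [0.52, 0.68]) and was named after its values were seen. So was Il15ra, an IL-15 receptor chain, with 6.21 and 11.8 CPM (0.93 [0.76, 1.10]) and a mean under the filter. The high-affinity IL-2 chain and the beta chain therefore went in opposite directions.

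Of 13 signalling genes, 12 were compared, and 3 were higher and 0 lower, with a median of 0.45 beside 0.19 for all genes compared. Stat3 had 62.3 and 113 CPM (0.86 [0.81, 0.92]) and Irak1, a kinase below MyD88, 32.1 and 49.3 CPM (0.62 [0.54, 0.70]). Of 4 feedback genes, 3 were compared and none passed 1.5-fold, with Socs3 at -0.34 [-0.49, -0.20], Cish at -0.27 [-0.38, -0.15] and Socs1 at -0.15 [-0.25, -0.044]. Of 11 ligands only Ifng had a mean of at least 10 CPM, with 175 and 159 CPM (-0.14 [-0.18, -0.11]). Most of the ligands were thus at a low level or under detection in the donor CD8 cells.

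In the CD4 gate 7 of 12 signalling genes compared were higher and 0 lower, 2 of 6 partner chains were higher and 3 lower, 2 of 3 ligands were higher, and 1 of 4 feedback genes was lower. Of all genes compared in that gate, 15.3% were higher and 3.05% lower.

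The receptors were last compared with 2555 other genes of at least 50 CPM by Pearson r of log2(CPM + 1) over 10 sums, the cycling and non-cycling CD8 and CD4 cells and the Foxp3+ gate at each day. Each library gave 5 of the sums, so r is a description. Il18r1 was closest to Klrd1 (r = 0.968), Id2 (0.960) and Ahnak (0.957), and Il18rap to Washc3 (0.980), Cxcr6 (0.976) and Nsa2 (0.965). The 2 IL-18 receptor chains had r = 0.903 with each other, the highest of any 2 of the 10 receptors over these 10 sums. The Foxp3+ sums behind it hold only 6 and 5 Il18rap UMIs. Receptor pairs were not computed without that gate, so the rank may rest on it. Il10ra was closest to Ccl3 (0.980) and Ddx50 (0.938), and Il21r to Ifi47 (0.957), Vamp8 (0.927) and Nrip1 (0.926). Il2rb was closest to Vmp1 (0.979), Ikzf3 (0.941) and Tapbpl (0.937), and Il2rg to Tpt1 (0.936), Atp2b1 (0.936) and Il7r (0.927). Il12rb2 was closest to Phax (0.931), Fkbp1a (0.826) and Ier5 (0.797), and Ifngr1 to Dusp5 (0.938), Prdx6 (0.925) and Pim1 (0.898). Il12rb1 was closest to Snx2 (0.947), Fth1 (0.937) and Kpna4 (0.935), but without the small Foxp3+ gate these were 0.787, 0.627 and 0.682 over 8 sums.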

How the data were processed

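Reads were processed by the authors in Cell Ranger 6.1.2 on mm10 (submitters' processing notes). The deposited values are unnormalized UMI counts of each gene in each barcode called a cell. Counts were summed over the cells of each gate and divided by the gate's total (Python 3.11.15, numpy 2.4.6, scipy 1.17.1, pandas 2.3.3, matplotlib 3.10.9). T cells needed at least 2 UMIs over the 6 T cell genes and under 0.5% of UMIs each on myeloid and erythroid genes. Scrublet (scanpy 1.11.5) marked 0 of 7355 and 0 of 8043 barcodes and thus had not worked; an alternative removed the 433 and 518 highest scores. The members, gates and lists were chosen with earlier results of these data known. Named genes are the 10 receptors, the 3 largest CD8 ratios per pathway list among genes at 10 CPM or more in either library, and the 3 nearest genes per receptor, of which some are not reported here. Positions are from GENCODE M21 and promoters from RefSeq (GRCm38.p6), which held 7 of the 10 receptors. Cell Ranger counts reads by strand. Calculations were tested on simulated data. With 1 library per day the mice are not separated, and the alternatives are given in the closing section.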

Additional observations from a re-analysis of the deposited data

Results flagged for a closer look

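Il12rb1 stood out because its differences had opposite signs in groups compared in the same way. Cycling over non-cycling CD8 cells gave a log2 ratio of 0.29 [0.099, 0.47] at day +7 and -0.45 [-0.64, -0.25] at day +14. Seen the other way, day +14 over day +7 gave -0.36 [-0.51, -0.21] in cycling and 0.37 [0.15, 0.60] in non-cycling CD8 cells. The counting intervals exclude 0 in each case, but there is 1 library per day and the difference was not tested. Relative to the median gene the day ratios were -0.52 in cycling and 0.17 in non-cycling CD8 cells. In non-cycling CD8 cells the median gene itself lay at 0.21, inside the Il12rb1 interval. In CD4 cells Il12rb1 gave -0.22 [-0.76, 0.32] and -0.40 [-1.03, 0.21] for cycling over non-cycling cells.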

How the results depend on the processing

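With 1 library per day no replicate could be left out. No paired analysis was possible because each group has a single library and no result comes from a test. Over the 56 differences past 1.5-fold, named or not, the alternatives gave 574 values, of which 572 kept their sign and 535 stayed past 1.5-fold. Part of this tally was fixed in advance. Raising the limit on the mean changed only which genes were compared, so its values equal the main ratios. Adding 1 CPM to both sides cannot change a sign. The 56 differences were also picked as past 1.5-fold in these same data, so the tally overstates how stable they are. Both reversals were Il10ra in cells thinned to 4000 UMIs, at -0.53 for Foxp3+ over CD4 cells at day +7 and -0.22 for day +14 over day +7 in cycling CD4 cells.

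Counts of receptors past 1.5-fold changed by over 1.5 times as follows, and the cause was not tested except where fewer genes were compared. A mean of at least 50 CPM removed the receptors under that mean in each comparison and left 0 by day in all cells, CD8 and CD4 cells, 0 by cycle in CD8 cells at day +7, 1 by cycle in CD4 cells at day +7, 0 and 1 for CD4 over CD8 cells at day +7 and day +14, and 4 and 3 for Foxp3+ over CD4 cells. A gate of 2 UMIs gave 4 by day in CD4 cells. In the Foxp3+ gate by day, the mean of per-cell CPM gave 1, thinning 1, and a gate that ignores Cd8, chosen after seeing the data, 2. That gate gave 4 for Foxp3+ over CD4 cells at day +7, where Il18rap was -0.61, against -2.17. By cycle in CD8 cells at day +14, thinning gave 1 and a cycling limit of 0.2% gave 0. For CD4 over CD8 cells at day +7, a total without mitochondrial, ribosomal and rRNA-associated genes, the mean of per-cell CPM, and removal of the highest Scrublet scores each gave 2, and the mean of per-cell CPM gave 1 at day +14. Smaller changes were 3 against 2 by day in CD4 cells under 5 settings, and, by day in CD8 cells, 4 against 3 with median-ratio scaling and 2 with thinning, under which Il12rb2 was not compared. Scaling by the median ratio moved Il18rap by day in CD8 cells to -0.011. In CD4 cells by cycle at day +7, Il18r1 was 0.10 after thinning. Depth limits the Foxp3+ gate, where Il18rap rests on 6 and 5 UMIs.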
